A study of Mus musculus with 4 samples.

Results

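The interferon regulatory factors are a family of transcription factors, and their genes were followed here in EO771, a mouse mammary carcinoma cell line, after exposure to recombinant A-FABP, the adipocyte form of fatty acid binding protein, encoded by Fabp4. Members were chosen by name: 8 genes, Irf1, Irf2, Irf3, Irf4, Irf5, Irf7, Irf8 and Irf9. A gene had to have a probe set whose annotation names no other gene, and 7 of the 8 did, among 22180 genes measured on that rule. The probe set for Irf5 also names Tnpo3 and gave no value.

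Total RNA was measured on 4 single-colour arrays. In 2 of them the cells had received mouse A-FABP at 100 ng/ml, and in 2 they had received PBS, the control named in the series design. All cells had grown for 24 hours to at least 70% confluence before treatment. How long the treatment lasted was not stated. The descriptions of the PBS arrays mention A-FABP too, but their titles and source names mark them as controls. The arrays are titled biological replicates, and whether they came from separate cultures is not stated, so the p-values cover the spread between these arrays, which may be technical.

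Interferon regulatory factors share an amino-terminal DNA-binding domain that recognises GAAA repeats, known as the interferon-stimulated response element (ISRE). IRF3, IRF5 and IRF7 wait in the cytoplasm until kinases downstream of sensors of foreign nucleic acid phosphorylate them, and then switch on the interferon genes. IRF9 is the DNA-binding subunit of the complex ISGF3, which carries the signal of type I interferon to the nucleus. IRF1 is induced by interferon-gamma through a promoter element called GAS, and by NF-kB. IRF2 occupies the same DNA element as IRF1 and mostly opposes it. IRF4 and IRF8 are best known from lymphoid and myeloid cells, where they bind DNA together with PU.1. An expression array measures the transcripts and not the phosphorylation of the proteins.

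The promoters of 3 members are printed because they hold matches to the elements just named, and because they belong to the member with the largest difference (Irf1), the member with the smallest (Irf2) and the member measured by more than 1 probe set (Irf8). Each window runs from 250 bases before to 50 bases after a RefSeq start site in GRCm38.p6, 5′ to 3′ on the strand of the gene. Capitals mark matches to the ISRE (GAAANNGAAA), to GAS (TTCNNNGAA) and to the NF-kB consensus, each searched on both strands.
Irf1, chr11:53769764-53770063, plus strand: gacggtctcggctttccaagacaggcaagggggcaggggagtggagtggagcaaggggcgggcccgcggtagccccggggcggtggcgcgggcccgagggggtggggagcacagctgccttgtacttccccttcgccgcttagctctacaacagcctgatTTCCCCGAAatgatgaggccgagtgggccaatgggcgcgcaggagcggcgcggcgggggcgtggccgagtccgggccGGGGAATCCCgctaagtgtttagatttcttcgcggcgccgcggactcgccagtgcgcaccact
Irf2, chr8:46739495-46739794, plus strand: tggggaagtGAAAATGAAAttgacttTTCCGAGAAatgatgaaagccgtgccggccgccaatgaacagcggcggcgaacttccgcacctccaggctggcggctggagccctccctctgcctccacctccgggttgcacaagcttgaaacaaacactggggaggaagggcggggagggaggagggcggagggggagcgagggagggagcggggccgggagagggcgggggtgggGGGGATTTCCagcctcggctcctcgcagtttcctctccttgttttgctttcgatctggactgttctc
Irf8, chr8:120736108-120736407, plus strand: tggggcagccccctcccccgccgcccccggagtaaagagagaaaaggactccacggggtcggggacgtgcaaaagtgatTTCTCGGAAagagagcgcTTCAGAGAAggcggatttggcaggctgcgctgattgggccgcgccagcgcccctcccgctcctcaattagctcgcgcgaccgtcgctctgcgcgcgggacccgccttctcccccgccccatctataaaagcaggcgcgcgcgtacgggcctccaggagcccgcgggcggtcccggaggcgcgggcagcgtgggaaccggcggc
In the Irf1 window the GAS match TTCCCCGAA begins at position -90 and the NF-kB match GGGGAATCCC at -13. The Irf2 window holds the ISRE match GAAAATGAAA at -241, the GAS match TTCCGAGAA at -224 and the NF-kB match GGGGATTTCC at -17. The Irf8 window holds the GAS matches TTCTCGGAA at -171 and TTCAGAGAA at -153. The matches share 0 bases with each other. The 8 members have 11 such windows, and the other 8 windows hold none of these motifs, which says only that the letters are not in those windows. Among all 32851 windows of this length, 3.44% hold an ISRE match, 8.3% a GAS match and 4.51% an NF-kB match. A match describes the sequence and does not show that a factor is bound.

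Values are log2 expression values as the authors made them with RMA, and each difference subtracts the PBS mean from the A-FABP mean. A difference was called at a limma adjusted p under 0.05 over all 41345 probe sets, and 0 probe sets (0%) were called, the lowest limma adjusted p being 0.296. At an unadjusted p under 0.05, 1 of the 7 members lay lower with A-FABP and 0 lay higher, against 8.24% of all genes lower and 4.81% higher. These shares depended on the scaling, the filter and the variance model: 1828 genes lay lower and 1066 higher as deposited, 1048 lower and 1812 higher after median centring, and 1062 lower and 979 higher after cyclic loess. With only probe sets above the median level, 865 lay lower and 1443 higher, out of 12545 genes instead of 22180. With trend and robust settings of the variance model, 1425 of the 22180 genes lay lower and 1889 higher. The A-FABP values all exceeded the PBS values in 4 members and were all under them in 2, against 26.0% and 27.5% of all genes, so groups that do not overlap are common in these data (53.5% of genes in either order). The median difference was 0.03 over the 7 members and -0.01 over all genes. The exact permutation test (two-sided, 2 arrays a group) has a floor of 0.333, so it cannot reach 0.05, and the 6 members whose groups do not overlap all have that value.

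**Figure D1:**
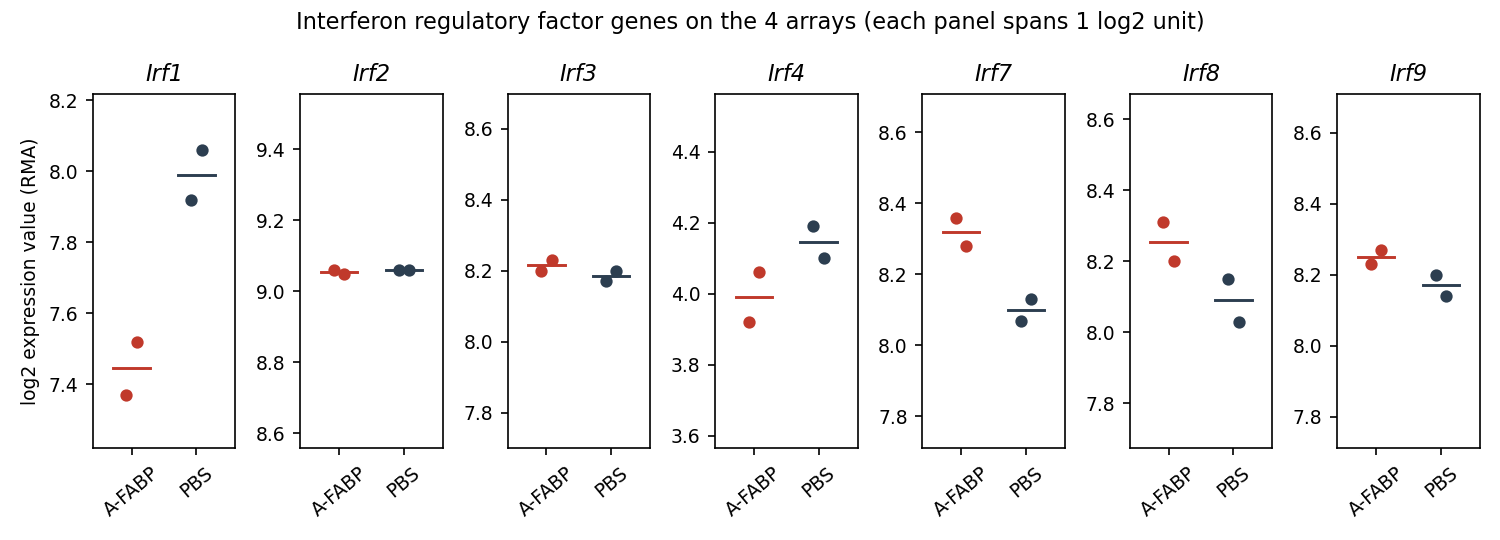
Log2 expression value of each member on the 4 arrays, with A-FABP left (red) and PBS right (dark), 1 point per array and a bar at the group mean. Every panel spans 1 log2 unit, and Irf1 has the widest gap between groups, at 7.37 and 7.52 with A-FABP against 7.92 and 8.06 with PBS.

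Irf1, the interferon- and NF-kB-responsive activator, had the largest difference of the family. It read 7.37 and 7.52 with A-FABP, against 7.92 and 8.06 with PBS. The groups do not overlap, A-FABP being lower, and the nearest arrays of the 2 groups were 0.40 apart. The group means were 7.45 ± 0.10 with A-FABP and 7.99 ± 0.10 with PBS (SD, n = 2 each), so that the distance between groups was several times the spread within them. The difference was -0.55 ± 0.11 (SE; 95% CI -0.84 to -0.25), 1.46-fold lower, with an unadjusted p of 0.0072 and a limma adjusted p of 0.296. Genes whose mean level lay within 0.5 of that of Irf1 had a median difference of 0.10 (2246 genes), on the other side of 0. Irf1 stayed between -0.62 and -0.47 with any 1 array left out.

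Irf2, which encodes the antagonist of IRF1 at the shared element, was nearly the same on all arrays. It read 9.06 and 9.05 with A-FABP, against 9.06 and 9.06 with PBS, and the groups overlap. The difference was -0.01 (95% CI -0.22 to 0.21), and the Irf1 estimate of -0.55 lies outside this interval. The width of the interval comes mostly from the variance that limma shares across probe sets. The sign of the Irf2 difference turned after median centring.

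Because the products of Irf1 and Irf2 compete, their difference within each array was compared between groups, which removes any scaling shared by an array. Irf1 minus Irf2 was -1.69 and -1.53 with A-FABP, against -1.14 and -1.0 with PBS. The shift was -0.54 (unadjusted 95% CI -0.84 to -0.24), while the sizes themselves compare different probes and carry no meaning. The interval borrows variance from single probe sets, so it may be too narrow for a difference of 2. The exact permutation p was 0.333, the smallest it can be, as for both other pairs of the 3 compared.

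Irf7, the interferon-induced member that amplifies type I interferon production, lay on the other side. It read 8.36 and 8.28 with A-FABP, against 8.07 and 8.13 with PBS, and the lower A-FABP value exceeded the higher PBS value by 0.15. The group means were 8.32 ± 0.05 with A-FABP and 8.10 ± 0.04 with PBS (SD, n = 2 each). The difference of 0.22 ± 0.08 (SE; 95% CI -0.02 to 0.45), 1.16-fold, had an unadjusted p of 0.0619 and a limma adjusted p of 0.345. Genes of like level (within 0.5) had a median of 0.09 with quartiles of 0.02 and 0.18, so that 0.12 remains beyond that median.

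Irf3, the constitutively expressed partner of IRF7, differed less. It read 8.20 and 8.23 with A-FABP, against 8.17 and 8.20 with PBS. The groups touch to within 0.0038. The difference was 0.03 (95% CI -0.18 to 0.25) and lay between 0.02 and 0.05 with any 1 array left out. It turned sign after cyclic loess, after repeated quantile normalization and when the median of genes of like level was subtracted. Irf7 minus Irf3 within arrays was 0.16 and 0.05 with A-FABP, against -0.10 and -0.06 with PBS, a shift of 0.18 (95% CI -0.06 to 0.43) that includes 0.

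Irf9, which encodes the DNA-binding subunit of ISGF3, read 8.23 and 8.27 with A-FABP, against 8.20 and 8.14 with PBS. The groups do not overlap, by a margin of 0.04. The difference was 0.08 (95% CI -0.14 to 0.31), close to the median of 0.09 over genes of like level, and it was -0.01 once that median was subtracted.

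Irf8, the myeloid lineage factor, was read by 2 probe sets. The brighter one stood at 8.31 and 8.20 with A-FABP, against 8.15 and 8.03 with PBS, and the groups were 0.05 apart with A-FABP the higher. Its difference was 0.17 (95% CI -0.10 to 0.44, limma adjusted p = 0.46). This lies within the quartiles of genes of like level, 0.02 and 0.19 around a median of 0.09, and 0.07 remains beyond that median. The other probe set read 5.37 and 5.11 with A-FABP, against 5.12 and 5.24 with PBS, and there the groups overlap, at a difference of 0.06 (95% CI -0.29 to 0.41). The difference of the brighter probe set was 0.11 without A-FABP replicate 1 and also without PBS control replicate 2.

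Irf4, known from plasma cells and other lymphocytes, was dim. It read 3.92 and 4.06 with A-FABP, against 4.19 and 4.10 with PBS, all below the array medians of 5.95 to 6.03. The difference was -0.16 (95% CI -0.43 to 0.11). It was -0.09 without A-FABP replicate 1, and -0.09 after median centring. Genes of like level had a median of -0.08, the same direction. Irf8 minus Irf4 within arrays was 4.40 and 4.14 with A-FABP, against 3.96 and 3.94 with PBS. That is a shift of 0.32 (95% CI -0.01 to 0.66), and it was 0.20 without A-FABP replicate 1. The 2 genes differ in level, and genes of like level had medians of 0.09 for Irf8 and -0.08 for Irf4. Whether this difference between levels takes part in the shift was not tested.

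**Figure D2:**
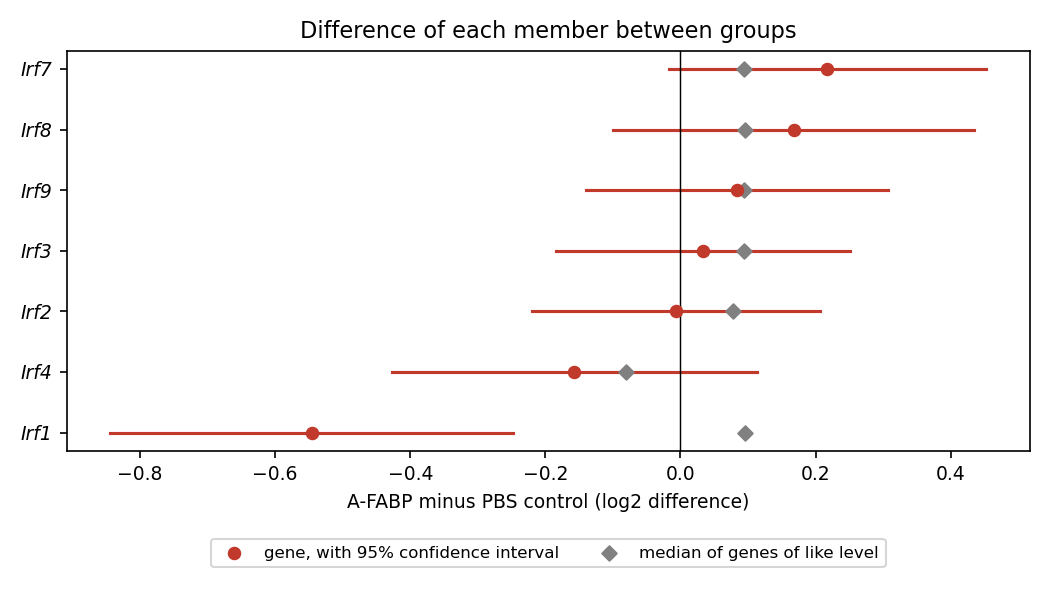
A-FABP minus PBS control log2 difference of each member (red points, lines are 95% confidence intervals from limma) and the median difference of genes with a mean level within 0.5 of that member (grey diamonds). The interval of Irf1, -0.84 to -0.25, is the only one of the 7 that leaves out 0.

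**Figure D3:**
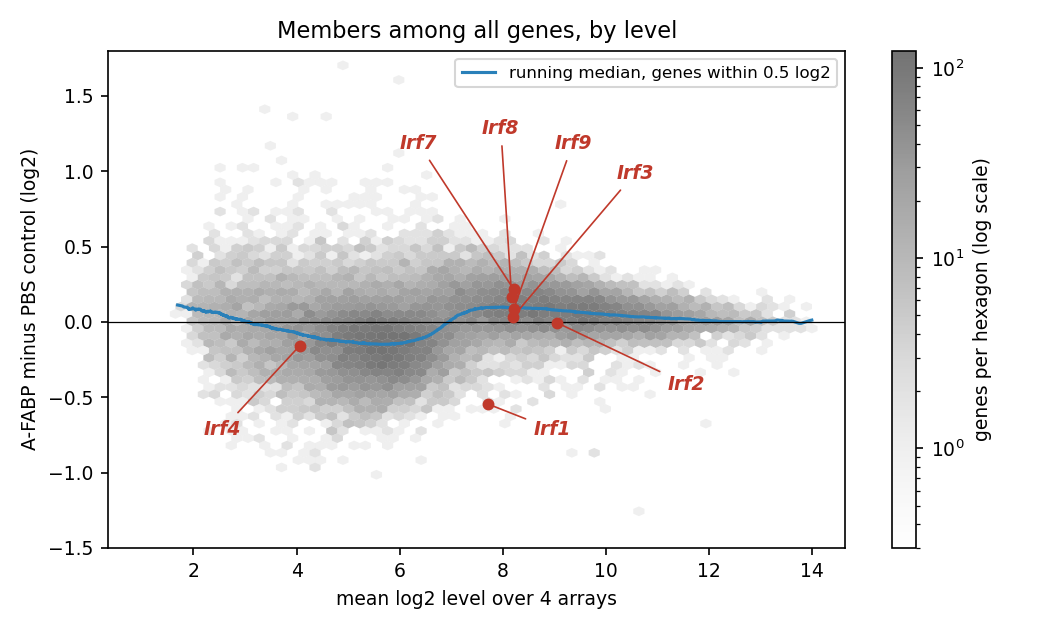
Log2 difference (vertical axis) against mean log2 level (horizontal axis) for 22180 genes, shaded by genes per hexagon, with the running median in blue and the members in red. Irf3, Irf7, Irf8 and Irf9 lie in a range of levels where the running median is 0.09, and Irf1 lies below the bulk of genes of its level.

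The cell label was set against markers. Krt8, a keratin of luminal epithelium, read 8.76 and 8.85 with A-FABP, against 8.83 and 8.74 with PBS. Cldn3, a tight junction claudin, read 6.88 and 6.69 with A-FABP, against 7.03 and 6.89 with PBS, and Esr1, the oestrogen receptor gene, read 6.71 and 6.64 with A-FABP, against 6.63 and 6.6 with PBS. These were the brightest of the 14 measured mammary epithelial markers, whose median level of 6.01 is that of the array medians. Whether any of the 14 markers is present, Krt8, Cldn3 and Esr1 included, was not called. Of the 14, 5 lay below the median level of all probe sets, among them Epcam at a mean level of 4.79. Of 20 measured leukocyte markers, 15 lay below the median level of all probe sets. Ptprc, the pan-leukocyte antigen CD45, read 4.0 and 4.0 with A-FABP, against 4.58 and 4.32 with PBS. Spi1, which encodes PU.1, read 5.92 and 5.61 with A-FABP, against 6.09 and 6.10 with PBS. The brightest of the list was Cd68, a lysosomal glycoprotein of macrophages, at 12.70 and 12.80 with A-FABP, against 12.82 and 12.84 with PBS. Cd14, a lipopolysaccharide co-receptor, read 7.19 and 7.49 with A-FABP, against 7.05 and 7.08 with PBS. Ly6c2, a monocyte surface antigen with close paralogs, read 7.17 and 7.17 with A-FABP, against 6.44 and 6.57 with PBS. The mean level of the leukocyte list was 5.97 and 5.94 with A-FABP, against 6.06 and 6.04 with PBS, and its part in the values of Irf4 and Irf8 was not tested. The mammary epithelial list averaged 6.02 and 6.0 with A-FABP, against 6.13 and 6.13 with PBS. The median difference was -0.12 over the leukocyte list and -0.13 over the epithelial list, and it was -0.02 and -0.01 after subtracting the median of genes of like level. In bulk RNA, fewer cells of a type and less RNA per cell cannot be told apart.

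The other genes of the pathway were described through lists, each beside the median of all genes (-0.01) and the shares given above. Interferon ligands, which include the alpha and beta genes that IRF3 and IRF7 switch on as well as Ifng and Ifne, lay mostly lower, with Ifnb1 on the other side. Of 19 measured genes 16 had a negative difference, against 11618 of all 22180 genes, which cover all levels. Of the 19, 12 lay below the median level of all probe sets. The median difference of the list was -0.28, and it was -0.16 after subtracting the median of genes of like level. Over the list, the medians of genes of like level were themselves centred on -0.10. At an unadjusted p under 0.05, 4 were lower and 1 higher. Ifnb1, the ligand that IRF3 switches on first, read 4.01 and 4.04 with A-FABP, against 3.72 and 3.79 with PBS, a difference of 0.27 ± 0.08. Ifna16 lay at -0.67 ± 0.20 and Ifna12 at -0.47 ± 0.10, both SE. In all 3 genes the values were dim, below 5 on every array, and the alpha interferon genes are near-identical copies whose probe sets may share signal. The limma adjusted p was 0.296 to 0.304 for these 3 genes.

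Receptors and the kinases beside them differed little. Ifnar1 and Ifnar2, the chains of the type I receptor, lay at 0.08 (95% CI -0.17 to 0.33) and 0.01 (-0.21 to 0.23). Ifngr1 and Ifngr2, the chains of the interferon-gamma receptor, lay at -0.04 (-0.31 to 0.23) and 0.01 (-0.20 to 0.22). Ifnlr1 and Il10rb, which form the lambda receptor, lay at -0.15 (-0.38 to 0.08) and 0.05 (-0.17 to 0.27). Among the kinases that these receptors use, Jak1 lay at -0.02 (-0.24 to 0.19), Jak2 at 0.11 (-0.11 to 0.34) and Tyk2 at 0.19 (-0.06 to 0.43). Stat2, the partner of IRF9 in ISGF3, lay at 0.16 (-0.12 to 0.44). None of these 10 genes had an unadjusted p under 0.05.

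Sensors, adaptors and kinases that act on IRFs lay slightly higher, with a median of 0.10 over 19 genes and of 0.03 after subtracting that of genes of like level. At an unadjusted p under 0.05, 3 were higher and 0 lower. Tlr7, the endosomal sensor of single-stranded RNA that signals to IRF7, read 6.35 and 6.29 with A-FABP, against 5.90 and 5.73 with PBS, a difference of 0.50 ± 0.10 (SE). Tlr4, the lipopolysaccharide receptor, read 8.91 and 9.0 with A-FABP, against 8.66 and 8.53 with PBS, a difference of 0.36 ± 0.10. Both had a limma adjusted p of 0.296.

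Partners and inhibitors of IRFs had a median of -0.07 over 14 genes, and 2 were lower at an unadjusted p under 0.05, with 0 higher. That median was -0.04 without A-FABP replicate 1, -0.10 without A-FABP replicate 2 and -0.003 after median centring. Tnfaip3, which encodes the ubiquitin-editing NF-kB inhibitor A20, read 8.97 and 8.65 with A-FABP, against 9.57 and 9.80 with PBS, a difference of -0.88 ± 0.16 (SE). Batf3, a partner of IRF8 in dendritic cells, lay at -0.35 ± 0.12, with all values below 6. Neither gene had overlapping groups, as in 53.5% of all genes, and both had been picked by a low p.

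Genes that ISGF3 switches on had a median of 0.05 over 25, with 4 higher and 1 lower at an unadjusted p under 0.05. That median was 0.01 without A-FABP replicate 1, 0.12 without A-FABP replicate 2 and 0.11 after median centring. The 5 genes did not include the classic members Isg15 (-0.01), Ifit1 (-0.01), Ifit3 (0.00) or Rsad2 (0.00), which were looked up after the values were seen. Oas1b, of the oligoadenylate synthetase family, read 6.62 and 6.94 with A-FABP, against 6.06 and 6.38 with PBS, a difference of 0.56 ± 0.18 (SE). Parp14, an ADP-ribosyltransferase, lay at 0.32 ± 0.08. Ddx60, a helicase that assists RNA sensing, lay at -0.25 ± 0.08 with values below 5.

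Genes induced by IRF1 or interferon-gamma had a median of 0.03 over 34, with 20 above 0 and 14 below, and that median lay between 0.01 and 0.06 with any 1 array left out. At an unadjusted p under 0.05, 5 were higher and 2 lower. The lower ones were the chemokine genes Cxcl11, at 5.60 and 5.34 with A-FABP against 6.03 and 6.03 with PBS (-0.56 ± 0.12, SE), and Cxcl9, at 4.95 and 4.90 with A-FABP against 5.28 and 5.22 with PBS (-0.32 ± 0.08). Higher were Ptgs2, the gene of the inducible prostaglandin synthase COX-2, at 7.78 and 7.85 with A-FABP against 7.29 and 7.39 with PBS (0.48 ± 0.09), and Gbp3, a guanylate-binding GTPase (0.36 ± 0.10). Cxcl11, Cxcl9 and Gbp3 were dim, with mean levels of 5.75, 5.09 and 5.75. Subtracting the median of genes of like level left Cxcl11 at -0.41, Cxcl9 at -0.19, Ptgs2 at 0.39 and Gbp3 at 0.51. Irf1 itself lay at -0.55. No member of these lists passed the limma adjusted threshold.

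**Figure D4:**
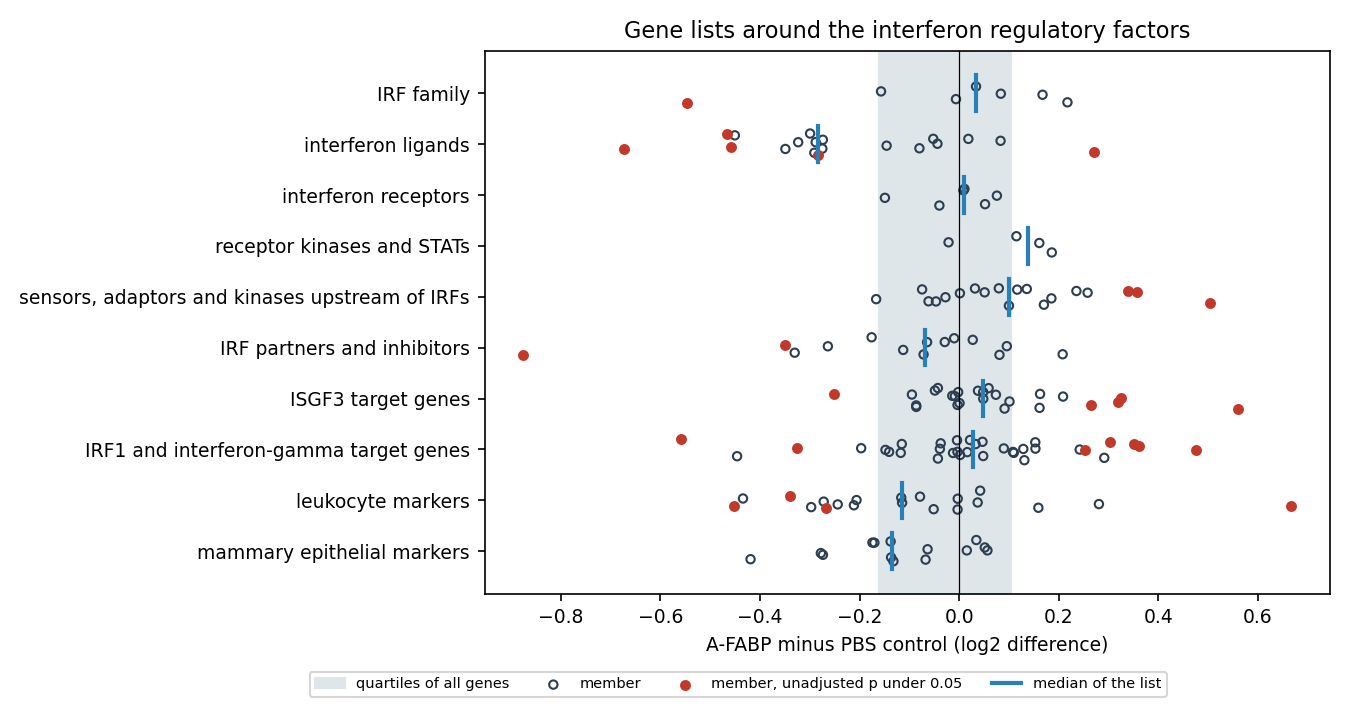
A-FABP minus PBS control log2 difference of each measured gene in the family and the 9 lists (filled red points have an unadjusted p under 0.05, blue bars are list medians, points are spread vertically for legibility), with the quartiles of all genes, -0.16 and 0.10, shaded. The interferon ligand list has the lowest median, -0.28, and the kinase and STAT list the highest, 0.14.

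The genes whose 4 values ran most like those of Irf1 were found by the root mean square distance between gene-centred log2 values over the 4 arrays, among 12544 genes above the median level. Stra6, which encodes a retinol transporter receptor, was nearest (distance 0.03), at 6.0 and 6.10 with A-FABP, against 6.47 and 6.61 with PBS. Ighm, the immunoglobulin mu heavy chain gene, and Rbakdn followed, with differences of -0.55 and -0.47. For Irf7 the nearest were Fbxl2, Gm4419 and Gstm4, with differences of 0.22, 0.21 and 0.23. Likeness over 4 arrays says nothing of shared function or control.

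**Figure D5:**
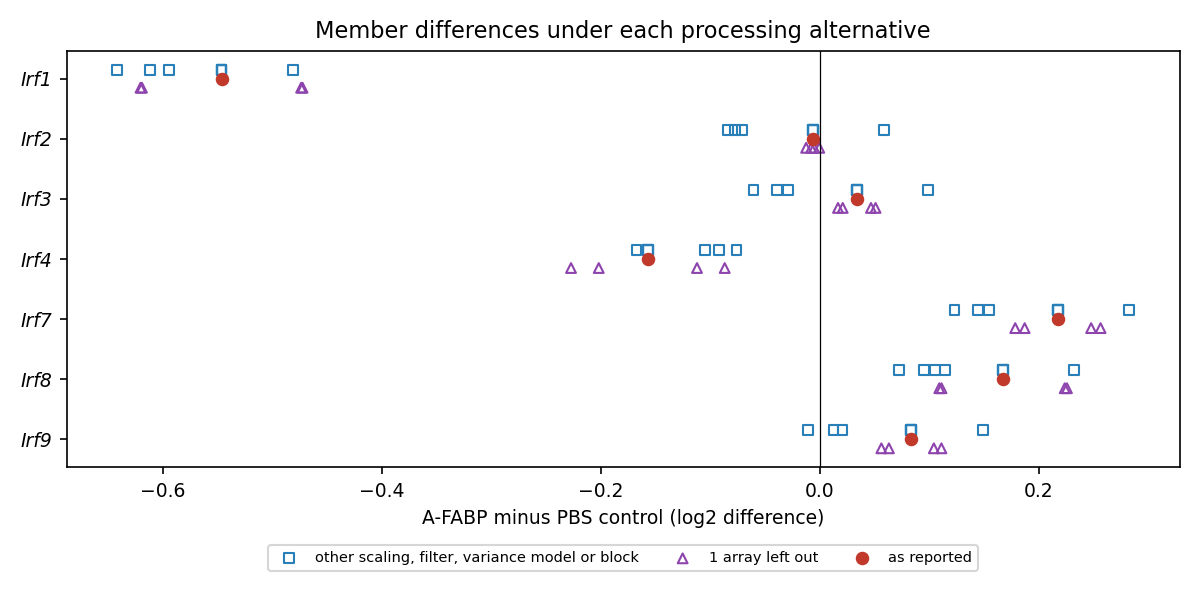
Log2 difference of each member as reported (red), under other scalings, filters, variance models or a block (blue squares) and with 1 array left out (purple triangles). Irf1 stays between -0.64 and -0.47 throughout, while Irf2, Irf3 and Irf9 have values on both sides of 0.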

How the data were processed

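The authors deposited log2 expression values, 1 for each probe set on each of 4 arrays. Per the submitters' processing notes, they were made with RMA (background correction, between-array normalization and probe summary) and Partek 6.6. RMA can compress differences near the background, so those of dim genes may be understated. Whether this happened here was not tested. At the dim level of Irf4, genes had a median difference of -0.08 with quartiles of -0.24 and 0.07. At the level of Irf3 the median was 0.09, with quartiles of 0.02 and 0.19. These spreads do not separate noise from true differences. Genome build and treatment time: not given in the sources used here. Signal over background was not analysed, and the number of arrays limits the precision.

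The platform annotation names 1 gene for 23521 of 41345 probe sets, several for 1814 and none for 16010. The probe set with the highest mean over 4 arrays stood for a gene with several (1082 genes). Groups came from the titles. Differences were fitted with limma 3.58.1 in R 4.3.3 (lmFit, eBayes, 2 residual and 1.91 prior degrees of freedom) over all probe sets, two-sided, with Benjamini-Hochberg adjustment. The fit was tested on simulated data. Exact permutation tests used scipy 1.17.1. The interval of a member pair used the prior of that fit. That prior comes from single probe sets, and a difference of 2 can vary more, so the pair intervals may be too narrow.

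The members and lists were chosen with earlier results of these data known. Genes named from a list are the 2 lowest and 2 highest at an unadjusted p under 0.05. Receptors and their kinases are all named, and of the marker lists the 3 brightest, with Ptprc, Spi1 and Krt8. Promoter sequences are from RefSeq (GRCm38.p6), where all 8 members matched by symbol. Alternatives covered scaling, filters, the variance model, repeated rows, the replicate block and each array left out.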

Additional observations from a re-analysis of the deposited data

How the results depend on the processing

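No member and no gene of the lists passed the limma adjusted threshold as reported or under any of the 13 alternatives run across probe sets, and the smallest adjusted p over all probe sets ranged from 0.156 to 0.579. Irf1, Irf4, Irf7 and Irf8 kept their sign under every alternative that measured them. The number of members at an unadjusted p under 0.05 was 1 as reported. It was 2 after median centring, with only probe sets above the median level, with trend and robust settings and with only probe sets of 1 gene, where Irf7 joined Irf1 at an unadjusted p of 0.0289, 0.0286, 0.0302 and 0.0384. Signs turned for Irf2 after median centring (0.0585), for Irf3 after cyclic loess (-0.0289) and repeated quantile normalization (-0.039), and for the receptor list median under the same scalings (-0.0397 and -0.0405). The leukocyte list median was 0.16 over the 5 genes above the median level. Subtracting the median of genes of like level, an alternative chosen after seeing the data, gave -0.0605 for Irf3, -0.0107 for Irf9 and -0.0441 for the receptor list. The cause of these turns was not tested. With all 4 arrays in the fit, groups did not overlap in 4 to 6 members. The share of all genes was 53.5% as deposited and was not counted under the alternatives. Counts with 1 array left out are not comparable, because a group of 1 array overlaps less easily. Genes at an unadjusted p under 0.05 numbered 2894 as reported. Their numbers are not given for fits with 1 array left out, where a group holds a single array. The replicate block left 1 member at an unadjusted p under 0.05 and 2187 genes. Same-numbered arrays did not deviate together (r = -0.0089 across 41345 probe sets), so the numbers are not taken to pair them. Trend and robust settings were not run for the member pairs, and the filter on level leaves out Irf4 and its pair.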

Other observations

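Further members of the lists had an unadjusted p under 0.05, and those below were chosen after their values were seen. Casp1, which encodes the inflammatory caspase that matures interleukin-1 beta, read 10.89 and 10.93 with A-FABP, against 10.60 and 10.52 with PBS. Casp4, the caspase of the non-canonical inflammasome, read 10.96 and 10.96 with A-FABP, against 10.67 and 10.64 with PBS. Their differences were 0.35 ± 0.08 and 0.30 ± 0.08 (SE), among the bright genes of the IRF1 list. Eif2ak2, the double-stranded RNA kinase PKR, read 9.26 and 9.23 with A-FABP, against 8.97 and 8.89 with PBS (0.32 ± 0.08). Parp9, another gene of the ADP-ribosyltransferase family, read 7.37 and 7.34 with A-FABP, against 7.10 and 7.09 with PBS (0.27 ± 0.08). Tlr3, the sensor of double-stranded RNA, read 6.31 and 6.05 with A-FABP, against 5.85 and 5.83 with PBS (0.34 ± 0.12). None of these 5 genes had overlapping groups, but 53.5% of all genes share this and picking by a low p makes it likely. The limma adjusted p was 0.296 to 0.329 for the 5 genes.

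On the lower side, Ifna4 read 7.45 and 7.45 with A-FABP, against 7.86 and 7.96 with PBS (-0.46 ± 0.08, SE). The myeloid integrin gene Itgam and Tyrobp, an adaptor of myeloid receptors, lay at -0.34 ± 0.08 and -0.27 ± 0.08, with values below 6 on all arrays, whereas Ly6c2, a surface antigen of monocytes with close paralogs, lay at 0.67 ± 0.09. Cxcl10, a chemokine gene that IRF1, IRF3 and NF-kB all induce, lay at -0.12 and did not reach an unadjusted p under 0.05.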
